A study of Homo sapiens with 4 samples.

Results

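The genes considered here are the GATA factors GATA1, GATA2 and GATA3 and their FOG cofactors ZFPM1 (FOG1) and ZFPM2 (FOG2), 5 genes in all. Each was given a window made of its gene body with 150 kb added to each side (GENCODE release 44, hg38), and the GATA2 peaks of asynchronous and of mitotic cells that touched a window were taken as its members. The windows held 95 of the 31777 asynchronous peaks (0.299%) and 11 of the 1648 mitotic peaks (0.667%). GATA2 occupancy had been mapped by ChIP-seq, in which DNA bound by a protein is pulled down with an antibody and sequenced, in K562, an established human cell line from chronic myeloid leukaemia. The 2 groups were asynchronous K562 cells and K562 cells arrested in mitosis with nocodazole and sorted for the mitotic antigen MPM-2. Both were fixed with disuccinimidyl glutarate and then formaldehyde, and the sorted fraction, collected in several rounds and pooled, kept fewer than 10% asynchronous cells according to the labels. Each condition has 1 GATA2 library, so a difference between the conditions cannot be set against a replicate spread, and no test between them was made.

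GATA factors are zinc finger proteins that bind the DNA string GATA. GATA2 acts in haematopoietic stem and progenitor cells, GATA1 in erythroid cells and megakaryocytes, and GATA3 in T cells and innate lymphoid cells. FOG proteins do not read this string themselves but bind the zinc fingers of GATA factors and bring in repressors such as the NuRD complex and CtBP. FOG1 is the partner of GATA1 in erythroid cells and megakaryocytes, whereas FOG2 is best known with GATA4 in the heart and gonad. GATA factors also control GATA genes, and the GATA2 locus carries elements upstream of the gene and in an intron that GATA2 and GATA1 bind in turn.

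Before the values, the sequences of the sites that the account turns on are given, from the hg38 reference and not from K562 itself. Capitals mark matches on either strand to WGATAR, the string that GATA factors prefer, in which W stands for A or T and R for A or G. Bookmarked means that an asynchronous peak shared at least 1 base with a mitotic peak, and distances are from the start of the Ensembl canonical transcript to the midpoint of the asynchronous peak, negative upstream. The first stretch, chr3:128496529-128496828 on the minus strand, is the part of the bookmarked peak upstream of GATA2 with most matches, and its first 139 bases lie in the mitotic peak. The second, chr3:128483289-128483348 on the minus strand, and the third, chr3:128495578-128495637 on the minus strand, come from asynchronous-only peaks of GATA2 and hold a match to the GATA:E-box composite. That composite was searched as CTG, then 7 to 9 bases of any kind, then GATAA, on both strands, and its GATAA is also part of a WGATAR match where A or T comes before it.
GATA2, bookmarked, -3477 bp: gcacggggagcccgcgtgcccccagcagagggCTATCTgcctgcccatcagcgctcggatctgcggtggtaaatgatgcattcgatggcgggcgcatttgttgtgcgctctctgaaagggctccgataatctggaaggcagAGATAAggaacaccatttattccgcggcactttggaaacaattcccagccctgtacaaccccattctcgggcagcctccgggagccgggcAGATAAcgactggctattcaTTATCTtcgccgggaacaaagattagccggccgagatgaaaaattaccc
GATA2, intron 4, +9889 bp: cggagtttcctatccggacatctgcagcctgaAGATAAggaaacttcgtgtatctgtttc
GATA2, upstream, -2386 bp: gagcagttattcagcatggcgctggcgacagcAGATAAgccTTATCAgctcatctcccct

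The stretches of the GATA1 window, both on the plus strand, are chrX:48785953-48786012 and chrX:48800871-48801170. The former holds the composite of the asynchronous-only peak just upstream of GATA1. The latter comes from the only bookmarked peak of the window, which lies between GATA1 and HDAC6. It holds 4 of the 8 WGATAR matches of that peak and both of its composites. A stretch at the other end of the peak holds as many matches but no composite. Of the printed stretch, the first 75 bases are inside the mitotic peak. For ZFPM1, chr16:88454025-88454224 and chr16:88455594-88455793, both on the plus strand in intron 1 and wholly inside mitotic peaks, are the 200 bases of each mitotic peak with most matches.
GATA1, upstream, -660 bp: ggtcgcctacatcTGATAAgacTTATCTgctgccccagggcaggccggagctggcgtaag
GATA1 window, bookmarked, +14253 bp: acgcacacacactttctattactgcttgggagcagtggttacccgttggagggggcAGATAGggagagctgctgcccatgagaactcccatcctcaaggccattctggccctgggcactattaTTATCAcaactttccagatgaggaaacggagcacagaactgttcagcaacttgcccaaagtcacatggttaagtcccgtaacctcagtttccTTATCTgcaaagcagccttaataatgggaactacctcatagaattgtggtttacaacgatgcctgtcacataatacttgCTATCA
ZFPM1, bookmarked, +864 bp: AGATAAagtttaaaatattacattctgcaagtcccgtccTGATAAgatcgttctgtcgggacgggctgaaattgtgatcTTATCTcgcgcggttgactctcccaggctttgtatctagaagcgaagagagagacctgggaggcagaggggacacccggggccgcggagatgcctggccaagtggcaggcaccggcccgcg
ZFPM1, bookmarked, +2395 bp: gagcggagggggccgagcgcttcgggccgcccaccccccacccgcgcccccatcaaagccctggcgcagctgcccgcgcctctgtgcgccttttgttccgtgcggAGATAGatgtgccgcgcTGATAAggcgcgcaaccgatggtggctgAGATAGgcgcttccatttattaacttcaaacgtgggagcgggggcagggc

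GATA2 peaks were crowded around GATA1, ZFPM1, GATA2 and ZFPM2 in asynchronous cells and sparse around GATA3, and mitotic peaks were found in every window but that of GATA3. Per 100 kb of window, asynchronous peaks numbered 6.50 at GATA1 (20 peaks), 4.69 at ZFPM1 (18 peaks), 3.51 at GATA2 (11 peaks), 2.91 at ZFPM2 (44 peaks) and 0.606 at GATA3 (2 peaks). The windows of all 20033 protein-coding genes, made in the same way, had a median of 1.57 and quartiles of 0.650 and 2.58. The GATA1 window exceeded 99.6% of them, the ZFPM1 window 96.6%, the GATA2 window 88.0%, the ZFPM2 window 80.5% and the GATA3 window 22.3%. Windows of neighbouring genes share peaks, so these ranks are a description and not a test. All 11 mitotic peaks overlapped an asynchronous peak, as did 97.5% of the whole mitotic list, and 1 lay in the GATA1 window, 1 in that of GATA2, 4 in that of ZFPM1 and 5 in that of ZFPM2. The map of the windows shows that 9 of the 11 fell within the gene bodies of ZFPM1 and ZFPM2, which also held 56 of the 95 asynchronous peaks (58.9%), that of GATA2 lay just upstream of the gene, and that of the GATA1 window lay next to HDAC6.

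Across the 5 windows, 11 of 95 asynchronous peaks were bookmarked, or 11.6% (95% exact binomial interval 5.92% to 19.8%), beside 5.04% of the whole asynchronous list. The windows of the GATA genes gave 2 of 33, or 6.06% (0.743% to 20.2%), close to the whole list, and those of the FOG genes 9 of 62, or 14.5% (6.86% to 25.8%). The 2 intervals overlap and the difference was not tested. These intervals cover counting error over peaks only, and peaks of 1 window share a locus. The 2 families also differ in what their windows hold. Of the 33 peaks of the GATA windows 10 were nearest to a GATA gene, and of the 62 of the FOG windows 55 to a FOG gene. The bookmarked peak of the GATA1 window was nearest to HDAC6. ZFPM1 had the highest share, 4 of 18 or 22.2% (6.41% to 47.6%), followed by ZFPM2 with 5 of 44 or 11.4% (3.79% to 24.6%), GATA2 with 1 of 11 or 9.09% (0.230% to 41.3%) and GATA1 with 1 of 20 or 5.00% (0.127% to 24.9%). GATA3 had 0 of 2, for which the interval runs up to 84.2%. Neighbours in this order do not differ beyond their intervals. Per 100 kb, the ZFPM1 window held 1.04 mitotic peaks, and 17 of all 20033 protein-coding genes had a higher value. The window of ZFPM2 held 0.330, that of GATA1 0.325 and that of GATA2 0.319, each close to the 90th percentile of all genes (0.322). For the short windows of GATA1 and GATA2 a single mitotic peak gives this value, and 75.7% of genes have no mitotic peak in their window. The depth of the libraries is not known from the lists, so a site without a mitotic peak may be unbound or below detection.

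GATA1, the erythroid and megakaryocytic GATA factor (chrX:48786540-48794311, plus strand, ENSG00000102145), had 3 asynchronous peaks nearest to its own transcription start sites (TSSs). They lay at -3491 bp (622 bp wide), at -660 bp (606 bp wide) and at +1365 bp in intron 1 (250 bp wide). The first 2 were wider than 86.1% and 84.7% of all asynchronous peaks. None of the 3 was bookmarked, beside 5.04% of the whole list and 9.65% of its peaks at or above the median width. They held 2, 3 and 4 WGATAR matches, and the composite was found in the middle one, in the stretch printed above. A further 2 peaks lay just beyond the end of the gene, at +7980 bp and +8557 bp, and were nearer to a TSS of HDAC6.

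The single mitotic peak of the GATA1 window, chrX:48800635-48800945 (311 bp), lay in an asynchronous peak of 789 bp centred at +14253 bp. Its midpoint was 587 bp upstream of the nearest TSS of HDAC6, which encodes a cytoplasmic deacetylase of tubulin, so by distance it belongs to HDAC6 and not to GATA1. The asynchronous peak held 8 WGATAR matches and 2 composites. The mitotic peak covered 39.4% of it and held 2 of the 8 matches and neither composite. Both composites lie beyond its edge in the printed stretch, on the side of HDAC6.

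The other peaks of the GATA1 window were spread over its neighbours. SUV39H1, a histone H3 lysine 9 methyltransferase, was nearest to 4 asynchronous peaks, the most of any gene of the window, and 1 of these, at its start, was the widest of all 95 peaks at 1342 bp. That peak was wider than 99.8% of the asynchronous list and held 5 WGATAR matches and 2 composites. It was not bookmarked. HDAC6, OTUD5 and PQBP1 were each nearest to 3 peaks, WAS to 2, and PIM2 and SLC35A2 to 1 each. The peak at the start of SLC35A2, 598 bp wide, held no WGATAR match. In all, 17 of the 20 peaks were nearest to a gene other than GATA1.

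GATA2 itself (chr3:128479427-128493201, minus strand, ENSG00000179348) was nearest to 6 of the 11 asynchronous peaks of its window. Upstream lay 4 of them, at -2386 bp (405 bp wide), -3477 bp (641 bp wide), -4589 bp (252 bp wide) and -39893 bp (494 bp wide), and no peak was found from there to the end of the window, 150 kb upstream. The remaining ones lay at +9889 bp in intron 4 (317 bp wide) and at +14706 bp, beyond the end of the gene (407 bp wide). The peak at -3477 bp was the only bookmarked one. Both flanking peaks upstream and the intronic peak, whose composite is printed above and which is the position of a known GATA2 enhancer, had no mitotic peak. Of the upstream trio, the bookmarked one was the widest.

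The mitotic peak of GATA2, chr3:128496690-128496969 (280 bp), sat off centre, with its midpoint 151 bp further from the gene than that of the asynchronous peak. It covered 43.7% of that peak and held 1 of its 4 WGATAR matches, AGATAG. The other 3, all AGATAA in the printed stretch, lay on the side of the gene, the closest of them 3 bases beyond the edge of the mitotic peak, so that the composite it belongs to straddles this edge. Of the mitotic peak, 271 bases overlap an exon of the antisense lncRNA GATA2-AS1. The 5 peaks nearest to other genes lay downstream of GATA2, 3 nearest to DNAJB8 and 2 in intron 6 of EEFSEC. None of them was bookmarked, beside 5.04% of the whole list. The widest of them, at +77334 bp, measured 1059 bp, more than 98.9% of the asynchronous list.

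GATA3, the lymphoid GATA factor (chr10:8045378-8075198, plus strand, ENSG00000107485), had 1 asynchronous peak nearest to it, at +68511 bp, and no mitotic peak. This peak was 611 bp wide and held 34 WGATAR matches, more than any other of the 95, with an uninterrupted run of 11 copies of the tetramer GATA (44 bases). The other peak of the window, 194 bp wide with a composite, was at -125995 bp in intron 2 of TAF3, which encodes a subunit of TFIID. No peak lay in the GATA3 gene body.

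RefSeq promoter windows (250 bp upstream to 50 bp downstream of a start, GRCh38) gave 10 windows for the 3 GATA genes and ZFPM1, 6 of them for GATA3. No peak of either list overlapped them, beside 3.45% of 35116 such windows of all genes with an asynchronous peak and 0.196% with a mitotic one, so 0 of 10 is near the background. None of the 10 held WGATAR, which was present in 25.0% of the windows of all genes. The nearest asynchronous peak was 107 bp away from the promoter window of GATA1, 435 bp from that of ZFPM1, 1934 bp and 5011 bp from the pair of GATA2 and at least 62388 bp from those of GATA3.

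ZFPM1, which encodes FOG1 (chr16:88453280-88537031, plus strand, ENSG00000179588), was nearest to 14 of the 18 asynchronous peaks of its window, and 15 touched its gene body. These lay in intron 1 (7 peaks), intron 3 (6 peaks), intron 4 (1 peak) and intron 6 (1 peak). The bookmarked ones formed a pair in intron 1, at +864 bp (762 bp wide) and +2395 bp (1226 bp wide), and a pair in intron 3, at +38485 bp (719 bp wide) and +44763 bp (790 bp wide). All 4 were wider than every one of the 14 asynchronous-only peaks of the window, the widest of which had 704 bp at +11606 bp. Bookmarked peaks were wide in the whole list too, with a median of 674 bp beside 378 bp for all asynchronous peaks. Of the bookmarked peaks of the list, 96.1% were at or above 378 bp. The peak at +1571 bp, between the pair of intron 1, was 181 bp wide, held no WGATAR match and was not bookmarked. No asynchronous peak lay more than 5159 bp upstream of the gene, on the side of ZNF469. Downstream, ZC3H18 was nearest to 3 peaks, of which 2 were within ZFPM1, and MVD to 1.

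The mitotic peaks of ZFPM1 were 577, 1042, 248 and 374 bp wide in the order of the gene. The second is the widest of the whole mitotic list, whose median is 298 bp. The pair of intron 1 covered 75.7% and 85.0% of their asynchronous peaks, and the pair of intron 3 covered 34.5% and 47.3%. Every WGATAR match of the 4 asynchronous peaks, 3, 6, 3 and 2 of them, lay inside the mitotic peak. In the first of the printed stretches of ZFPM1, the 3 matches lie within 85 bases.

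ZFPM2 encodes FOG2, and its annotated gene body extends over 1214 kb of chromosome 8 (ENSG00000169946), most of it upstream of the canonical start. Its window of 1514 kb held 44 asynchronous peaks, 46.3% of all 95, and 41 of them were nearest to ZFPM2. Another 3, in intron 1 of LRP12, were nearest to that gene, which encodes a receptor of the LDL receptor family. Within the canonical transcript, peaks lay in intron 1 (6 peaks), intron 2 (3 peaks), intron 3 (10 peaks), intron 4 (7 peaks) and intron 5 (2 peaks). A further 13 lay in the gene body upstream of the canonical start, and a stretch of 383608 bp within this part held no peak midpoint.

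The bookmarked peaks of ZFPM2 were at -116265 bp (516 bp wide), -74314 bp (468 bp wide), +3527 bp (922 bp wide), +10662 bp (635 bp wide) and +202367 bp (779 bp wide). They held 2, 2, 12, 3 and 7 WGATAR matches, and the mitotic peaks, of 321, 215, 771, 386 and 584 bp, held 2, 1, 12, 2 and 6. A composite was found in the first 4. The mitotic peak at +202367 bp was the only one of the 11 that reached beyond its asynchronous peak, with 93.3% of it inside. Wide peaks without a mitotic counterpart were present too, 1070 bp wide at +190166 bp and 1036 bp wide at +250935 bp.

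Taken over the 11 bookmarked peaks, 40 of 52 WGATAR matches (76.9%) lay inside the mitotic peaks, which covered 61.5% of the bases. In 6 of the 11 every match was inside, and in 2, those of GATA2 and of the GATA1 window, more were outside than inside. The midpoints of mitotic and asynchronous peaks were 14 to 151 bp apart, with a median of 53 bp. If reciprocal overlap of at least 50% was required, both of these latter peaks, the pair in intron 3 of ZFPM1 and the ZFPM2 peak at -74314 bp were no longer counted, and 6 of 95 (6.32%) stayed bookmarked, beside 2.02% of the whole list.

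Bookmarked peaks were wider than the rest in the windows, as they are in the whole list. Their median width was 762 bp (range 468 to 1226 bp), against 422.5 bp for the 84 asynchronous-only peaks (range 156 to 1342 bp). Width did not separate the groups in the other windows with a mitotic peak, where 2 asynchronous-only peaks at GATA1, 2 at GATA2 and 18 at ZFPM2 were at least as wide as the narrowest bookmarked peak of the window. Of the 10 widest peaks of all windows 7 were asynchronous only and 3 were bookmarked. In the whole list 5.04% of peaks were bookmarked, and 9.65% of those at or above the median width. The share among list peaks as wide as these 10 was not computed. The window peaks as a whole were wider than the list, with 64.2% of them at or above its median of 378 bp. Among peaks at or above this median, 11 of 61 in the windows were bookmarked, or 18.0% (9.36% to 30.0%), an interval that includes the 9.65% of the whole list in the same class. The part of width in the window share was not tested further. For the FOG windows this was 9 of 39 (23.1%), and for the GATA windows 2 of 22 (9.09%).

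A WGATAR match was present in 90 of the 95 peaks, or 94.7% (88.1% to 98.3%), close to 93.0% of the whole list and above 58.4% (51.1% to 65.5%) of 190 sequences of the same widths taken 5 kb to either side. Of the 5 peaks without one, 3 were in ZFPM1, and none was bookmarked, beside 5.04% of the whole list. The composite was found in 27 peaks, or 28.4% (19.6% to 38.6%), beside 23.4% of the list and 6.84% of the neighbouring sequences. It was found in 7 of the 11 bookmarked peaks, or 63.6% (30.8% to 89.1%), and 20 of the 84 others, or 23.8% (15.2% to 34.3%), beside 39.5% of all bookmarked peaks of the list. These bookmarked peaks are also wider, and the part of width in this difference was not tested. The counts are over whole asynchronous peaks. Of the 11 mitotic peaks themselves, 5 held the composite (45.5%, 16.7% to 76.6%), beside 33.8% of the whole mitotic list. The RUNX string AACCACA was found in 13 of the 95 peaks, 13.7% beside 13.6% of the list, and in 1 of the 11 bookmarked ones (9.09%, 0.230% to 41.3%), that of the GATA1 window, beside 20.4% of all bookmarked peaks. It was in 0 of the 11 mitotic peaks (interval up to 28.5%), beside 13.2% of the whole mitotic list. The E-box CAGCTG was found in 24.2% of the 95 peaks (16.0% to 34.1%), beside 24.1% of the list. The AP-1 string, TGACTCA or TGAGTCA, was found in 5.26% (1.73% to 11.9%), beside 13.0% of the list. The ETS string AGGAAGT was found in 8.42% (3.71% to 15.9%), beside 14.9%, and the KLF string CCACACCC in 8.42% (3.71% to 15.9%), beside 4.05%. None of these differences was tested. A match is a description of the reference letters and not of binding.

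Other genes of the pathway were described in the same windows for comparison. The 6 other genes of the GATA type had 37 asynchronous peaks, 3 of them bookmarked (8.11%, 1.70% to 21.9%). GATA6 had 11 asynchronous peaks and 1 bookmarked, GATA4 9 and 1, and ZGLP1 8 and 1, and only for GATA6 was the gene itself nearest to the mitotic peak. The 15 genes of the NuRD and CtBP partners of FOG proteins had 87 asynchronous peaks, 2 of them bookmarked (2.30%, 0.280% to 8.06%). CHD4 and MTA2, both NuRD subunits, had 12 each, and CTBP2 was the gene of this group nearest to a mitotic peak. The 12 genes whose products meet GATA factors on DNA had 141 asynchronous peaks, with 1 that lay in the windows of both KLF1 and LYL1 counted once, and 10 of them were bookmarked (7.09%, 3.45% to 12.7%). Among these, mitotic peaks were nearest to RUNX1 (2 peaks), CBFA2T3 (2 peaks), LMO2, ERG and LYL1 (1 peak each). All 3 intervals include the 5.04% of the whole list and overlap with that of the GATA and FOG windows (11.6%), and no difference was tested. RUNX1, a master regulator of definitive haematopoiesis, had a window of 1517 kb, slightly longer than that of ZFPM2. It held 42 asynchronous peaks and 2 mitotic ones, beside 44 and 5 for ZFPM2.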

How the data were processed

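GATA2 ChIP-seq peak lists of asynchronous and mitotic K562 cells (1 library each) were used as the authors deposited them, as chromosome, start and end in bp on hg38, with no score, height or count. The submitters' processing notes name BWA 0.7.12, MACS2 2.1.0, Genrich 0.6.1 and deepTools 2.5.4. The study's methods state unique alignment, 3′ read extension, peak calling with MACS and Genrich and removal of blacklisted regions, without the peak-calling thresholds. Inputs were not used here, and library depth is not known from the lists. The number and width of called peaks depend on that depth.

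Peaks were assigned to a window if they shared at least 1 base with the gene body of a member ±150 kb (GENCODE release 44), and each peak midpoint was given the protein-coding gene whose closest annotated TSS was nearest, over all its transcripts. Named were the 5 members, the protein-coding genes nearest to or holding a mitotic peak, the gene with most other asynchronous peaks per window, and genes of 3 comparison lists by the same rule. The members, lists and alternatives were chosen with earlier results of these data known, and further neighbours and single peaks were named after their values were seen. Strings were matched on both strands of the hg38 reference. Intervals are exact binomial (Clopper-Pearson, 95%) and cover counting error only. With 1 library per condition no test was made. On simulated data, all 400 bookmarked peaks planted among 4000 and all 785 planted GATA strings were recovered. Python 3.11.15, pysam 0.24.0, scipy 1.17.1 and numpy 2.4.6 were used.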

Additional observations from a re-analysis of the deposited data

How the results depend on the processing

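The bookmarked share of the window peaks lay between 6.32% and 18.0% under the 8 alternatives run for it, within the interval of the reported 11.6%, and the difference in median width between bookmarked and asynchronous-only peaks between 251 and 368.5 bp (339.5 bp as reported). A pair of alternatives were chosen after seeing the data, the canonical transcript in place of the gene body and leaving out ZFPM2. The number of asynchronous peaks was 58 in the gene bodies alone and 51 without the ZFPM2 window, in place of 95, and the number of mitotic peaks was 6 without the ZFPM2 window, in place of 11. The percentage of asynchronous peaks nearest to a member gene, 68.4% as reported, was 86.7% with 50 kb to each side, 96.6% in the gene bodies alone, 47.4% when genes of every type were allowed and 47.1% without the ZFPM2 window. The percentage of peaks with a GATA match, 94.7%, was 84.2% in the central 200 bp and 75.8% for AGATAA. In single windows, the bookmarked peaks of GATA1 and GATA2 fell from 1 to 0 each those of ZFPM1 from 4 to 2 and those of ZFPM2 from 5 to 4 with 50% reciprocal overlap, and those of GATA1 and GATA2 were 0 in the gene bodies alone. No paired analysis was possible because each condition has 1 library. Peak width stood in for signal, since the lists hold no height, and weakly bound mitotic sites cannot be told apart from unbound ones.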
